A study of Mus musculus with 136 samples.

Results

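The data described here are the counts of the tumor suppressor gene Trp53, which encodes p53, and of 9 genes of its response in the mouse conceptus at E8.5. The genes were taken by symbol from the deposited table, and all 10 (Trp53, Mdm2, Cdkn1a, Ccng1, Phlda3, Bax, Bbc3, Pmaip1, Trp53inp1 and Zmat3) were found among its 47643 genes. The samples were whole embryos and visceral yolk sacs of the NOD strain, in which dams had either become diabetic spontaneously and were mated to normoglycemic NOD males, or had stayed normal. At the 5–6 somite stages normal dams gave 17 concepti (10 litters) and diabetic dams 17 (9 litters), and at the 7–9 somite stages there were 16 (7 litters) and 16 (6 litters). The concepti were not spread evenly over litters. At 7–9 somites 1 diabetic litter gave more concepti than any other litter, so the 16 diabetic concepti are not independent replicates. Labelled maternal glucose was 105 to 164 mg/dl in normal and 423 to 595 mg/dl in diabetic dams, with 1 litter above the scale of the meter. Embryo and yolk sac of each conceptus were both sequenced, so 132 libraries were used, and 4 batch-control duplicates were left out. The stage of a yolk sac was that of the embryo with the same title, and 2 concepti carry different sex labels in embryo and yolk sac.

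p53 is a transcription factor that is held at a low level by the ubiquitin ligase Mdm2 and is stabilized when cells meet DNA damage, oxidative stress or other insults. It then raises genes that stop the cell cycle and genes that start cell death, and Mdm2 is itself one of its targets, which closes a feedback loop. Loss of Mdm2 is lethal to the mouse embryo unless p53 is removed as well, and in models of diabetic pregnancy p53 has been studied as a mediator of cell death in the neural tube. Since p53 is controlled largely at the protein level, the level of Trp53 RNA is not a measure of p53 activity. RNA of its targets is the readout that RNA sequencing gives, although most of these genes also respond to other factors.

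Promoters of 7 of the 10 genes had an entry in the RefSeq table for GRCm38.p6, in 10 windows reaching from 250 bases before to 50 bases after a transcription start. The 10-base unit of the p53 response element consensus, which reads the same on both strands, was searched in these windows. Of the 32851 promoter windows of that table, 2745 (8.36%) hold a match and 118 (0.359%) hold at least 2. In 24 windows 2 units adjoin or have a short gap between them, which was counted as a full site. Among the genes described here 5 have a window with a match, namely Trp53, Mdm2, Cdkn1a, Ccng1 and Bax, while no window of Phlda3 and none of Bbc3 has one. Pmaip1, Trp53inp1 and Zmat3 had no window and were not searched. The stretches around the matches are shown because they set the genes with such letters next to a start apart from Phlda3 and Bbc3. The genes also differ in how many they hold. Capitals mark the 10-base unit, and the sequence is written 5′ to 3′ on the strand of the gene.
Trp53, chr11:69580264-69580313, plus strand: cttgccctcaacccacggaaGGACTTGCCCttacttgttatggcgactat
Mdm2, chr10:117710915-117710964, minus strand: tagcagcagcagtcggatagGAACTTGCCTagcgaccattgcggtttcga
Cdkn1a, chr17:29090886-29090957, plus strand: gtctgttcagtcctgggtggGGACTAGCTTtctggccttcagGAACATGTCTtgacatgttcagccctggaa
Ccng1, chr11:40755442-40755491, minus strand: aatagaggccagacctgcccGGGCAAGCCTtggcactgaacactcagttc
Bax, chr7:45467070-45467119, minus strand: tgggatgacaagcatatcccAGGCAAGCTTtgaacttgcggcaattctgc
A match is a description of these letters and not a binding site shown in these tissues, and the window does not cover response elements in introns or farther upstream. Cdkn1a has 2 windows, and 1 of them holds a match. The stretch in that window is the one with 2 matches, at −73 to −64 and −51 to −42 from its start. That window is among the 24 counted with a full site.

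In GRCm38 the genes called for maternal diabetes lie on several chromosomes. Trp53 (ENSMUSG00000059552) is at chr11:69580359-69591873 on the plus strand, and Ccng1 (ENSMUSG00000020326) at chr11:40748552-40755311 on the minus strand. Cdkn1a (ENSMUSG00000023067) is at chr17:29090976-29100727 and Phlda3 (ENSMUSG00000041801) at chr1:135766119-135769136, both on the plus strand. The gene model Gm45808 overlaps Bax on the same strand, so counts of Bax are less certain than the others.

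Counts of molecules per library ranged from 1017901 to 5658850 with a median of 2302819. Levels are given as CPM, the count of a gene scaled to a common library total with TMM factors over the 132 libraries. Because each molecule is counted at its 3′ end, transcript length does not enter these values. All 10 genes were detected, and counts of 0 were seen for Pmaip1 in 2 yolk sacs and for no other of these genes. In normal embryos at 5–6 somites the highest of the 10 was Zmat3, which encodes an RNA-binding zinc finger protein, with 116 ± 25 CPM (SD, n = 17), followed by Mdm2 with 95 ± 16.6 CPM. The lowest was Phlda3, an inhibitor of Akt signaling, with 4.44 ± 1.35 CPM. The next lowest were Trp53inp1 with 8.01 ± 2.41 CPM and Cdkn1a with 11.5 ± 5.88 CPM, whose ranges overlapped. Between a duplicate library and its original the 10 genes differed by a median of 0.13 on the log2 scale, and at most by 0.89, for Pmaip1. Marker genes set the tissues apart. The summed level of 10 visceral endoderm genes was 41.3 to 1466 CPM in embryos and 4606 to 21551 CPM in yolk sacs, and that of 8 genes of the embryo proper 366 to 743 CPM in embryos and 1.45 to 32.3 CPM in yolk sacs.

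**Figure D1:**
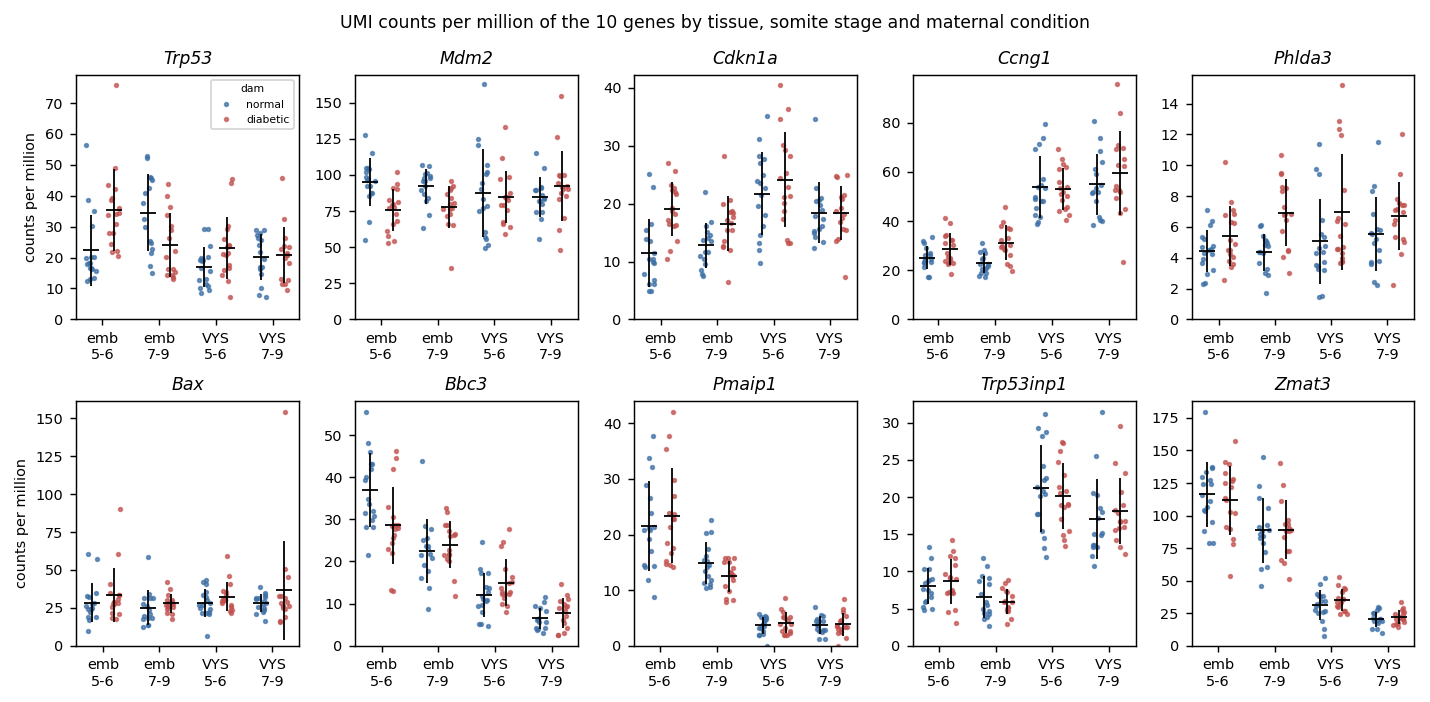
Level of each of the 10 genes in every library, in TMM-scaled CPM, by tissue (embryo, emb, or visceral yolk sac, VYS), somite stage and maternal condition, with 1 point a library and the mean ± SD of each group. Embryonic Trp53 has means of 22.3 and 35.4 CPM under normal and diabetic conditions at 5–6 somites, and of 34.5 and 24.1 CPM at 7–9 somites.

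The first comparison asked whether the p53 genes differ in embryos of diabetic dams. At 5–6 somites Trp53 itself and Cdkn1a, the cyclin-dependent kinase inhibitor p21, were raised, and the other 8 genes did not pass the test. Trp53 in normal embryos was 12.3 CPM at the lowest, 18.3 CPM at the median and 56.4 CPM at the highest, against 20.5, 34.1 and 75.8 CPM in diabetic embryos. All 17 diabetic embryos were above the normal median and 1 was above the highest normal embryo, so the groups overlapped. Trp53 was higher by 0.68 on the log2 scale (SE 0.18, adjusted p = 0.0462, edgeR quasi-likelihood test, Benjamini-Hochberg over 11004 genes). Cdkn1a was 4.92, 10.4 and 25.2 CPM in normal and 10.5, 18.7 and 27 CPM in diabetic embryos. Again all 17 diabetic embryos were above the normal median, and 2 were above the highest normal embryo. Cdkn1a was higher by 0.76 (SE 0.18, adjusted p = 0.0272). Thus 2 of 10 genes were called higher and 0 of 10 lower, where 0.591% of all tested genes were called higher and 0.872% lower. The median log2 difference of the 10 genes was 0.16, and that of all genes was 0.00. In whole embryos, more cells with a transcript and more of it per cell cannot be told apart.

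Mdm2, the ligase that degrades p53, did not pass the test at 5–6 somites, although only 1 of 17 diabetic embryos was above the normal median. Its level was 54.8, 96.3 and 128 CPM at the lowest, median and highest in normal and 52.7, 77.9 and 102 CPM in diabetic embryos, a log2 difference of −0.33 (SE 0.09, adjusted p = 0.0562). Mdm2 was called lower with DESeq2 (adjusted p = 0.0260), with the number in the titles as a covariate (adjusted p = 0.0411) and with trends on GC content and length removed (adjusted p = 0.0469). In all it was called in 4 of 11 alternatives and in 3 of 19 fits without 1 litter. Over these fits its difference was between −0.44 and −0.14, with adjusted p-values up to 0.867. Bbc3, which encodes the cell death protein Puma, had 36.9 ± 8.71 CPM in normal and 28.5 ± 9.22 CPM in diabetic embryos (log2 difference −0.37, adjusted p = 0.116). The other mediators of cell death were closer to 0. The difference was 0.23 for Bax, 0.28 for Phlda3, 0.11 for Pmaip1, which encodes Noxa, and 0.13 for Trp53inp1, with adjusted p-values from 0.319 to 0.754. Ccng1, which encodes cyclin G1, had a difference of 0.19 (adjusted p = 0.273), and Zmat3 one of −0.06 (95% interval −0.28 to 0.17).

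The calls at 5–6 somites moved with the libraries entered, with covariates of the embryos and with 1 technical measure. Of 11 alternatives, Trp53 was called in 7 and Cdkn1a in 8. With somite number and sex as covariates Cdkn1a was called and Trp53 was not. In normal embryos mean Trp53 was 25.1 CPM at 5 (n = 11) and 17.2 CPM at 6 somites (n = 6). In diabetic embryos it was 38.6 CPM (n = 13) and 25.2 CPM (n = 4). All 5 normal embryos with the number 23 or 24 in their titles had 5 somites, and all 6 with 6 somites had 28. Over the 12 normal embryos with 28, mean Trp53 was 16.6 CPM, below that at 6 somites. Among these 12, Trp53 thus did not fall from 5 to 6 somites. The fall over all normal embryos was therefore not separate from the title number. The share of counts taken by Gm42418, a noncoding gene that overlaps ribosomal RNA sequence, was on average 3.90% in normal and 6.65% in diabetic embryos at this stage. Across the 66 embryos, with group means removed, this share had a Spearman correlation of 0.70 with Cdkn1a and of −0.49 with Mdm2, given here as a description. With the share as a covariate, added after seeing the data, Trp53 was higher by 0.53 (adjusted p = 0.532) and Cdkn1a by 0.32 (adjusted p = 0.730), and 0 genes of the whole table were called. With the litter as a random block the adjusted p was 0.176 for Trp53 and 0.101 for Cdkn1a, and leaving out 1 litter at a time kept the call of Trp53 in 6 of 19 fits and that of Cdkn1a in 13 of 19. The part of Gm42418 RNA in the differences was not tested beyond this.

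Titles of the samples begin with a condition letter and the number 23, 24 or 28, whose meaning the labels do not give, and the levels of Trp53 differed by it. Among embryos at 5–6 somites with the number 28, Trp53 was 12.3 to 20.3 CPM in 12 normal and 20.5 to 43.6 CPM in 13 diabetic embryos, so that the groups did not overlap. Among those with 23 or 24, it was 19.9 to 56.4 CPM in 5 normal and 24.4 to 75.8 CPM in 4 diabetic embryos, which overlapped widely. For Cdkn1a the medians were 9.80 and 19.3 CPM in normal and diabetic embryos with the number 28, and 16.5 and 16.7 CPM in those with 23 or 24. Within the number 28, chosen after seeing the data, Trp53 was higher by 0.96 (adjusted p = 1.47e-04) and Cdkn1a by 1.11 (adjusted p = 4.33e-04), and Mdm2 was lower by a log2 difference of −0.44 (adjusted p = 0.00227) and Bbc3 by one of −0.66 (adjusted p = 0.00182). In that fit 1753 genes of the whole table were called, against 161 in the main fit. With the number as a covariate over all 34 embryos, Trp53 was higher by 0.78 (adjusted p = 0.0021), and 448 genes of the table were called.

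At 7–9 somites a different pair of genes was raised in embryos of diabetic dams, Ccng1 and Phlda3. Ccng1 was 17.0, 22 and 31 CPM at the lowest, median and highest in normal and 19.6, 30.1 and 45.6 CPM in diabetic embryos. Of 16 diabetic embryos 14 were above the normal median and 7 above the highest normal embryo. The difference was 0.45 (SE 0.11, adjusted p = 0.00813). Phlda3 was 1.69, 4.54 and 6.10 CPM in normal and 2.99, 6.82 and 10.7 CPM in diabetic embryos. Here 11 of 16 diabetic embryos were above the highest normal one, and the difference was 0.64 (SE 0.17, adjusted p = 0.0151). These levels of Phlda3 rest on 3 to 36 counts per library. Counts thus gave 2 of 10 genes higher and 0 of 10 lower, against 5.2% and 3.89% of all tested genes, and the median difference was 0.04 for the 10 genes and −0.01 for all genes.

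Both calls at 7–9 somites held in all 13 fits without 1 litter. The title numbers were uneven between conditions, with 23 or 24 in 3 of 16 normal and 8 of 16 diabetic embryos. Median Ccng1 was 21.6 CPM in normal and 33.5 CPM in diabetic embryos with the number 28, and 22.6 and 28.8 CPM in those with 23 or 24. For Phlda3 the medians were 4.7 and 7.0 CPM with the number 28, and 4.3 and 5.7 CPM with 23 or 24. With counts summed per litter, a fit that has 13 samples, the adjusted p was 0.128 for Ccng1 and 0.0884 for Phlda3, and the litter block gave 0.0683 for Phlda3. The dependence of counts on GC content of the transcript end, taken per library as the slope over genes in log2 units per 10 percentage points, had a mean of −0.018 in normal and 0.107 in diabetic embryos. With trends on GC content and length removed in each library, an alternative added after seeing the data, Phlda3 was higher by 0.40 (adjusted p = 0.137) and Ccng1 stayed called. Markers of other cell types had uneven levels at this stage. Of 5 primitive erythroid markers 3 were tested, with a median log2 difference of 1.23 and no call, and their summed level was 15.9 to 2049 CPM in diabetic and 8.57 to 703 CPM in normal embryos, with medians of 99.6 and 81.6 CPM. Of 10 visceral endoderm markers 8 were tested, with a median difference of 0.52 and no call, and the summed level was 61.8 to 1466 CPM and 41.3 to 646 CPM, with medians of 238 and 193 CPM. The 8 markers of the embryo proper, all tested, had a median difference of −0.15. The part of these tissues in the values of Ccng1 and Phlda3 was not tested.

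The remaining genes at 7–9 somites did not pass the test. Trp53 was 15, 35.1 and 53 CPM in normal and 13.0, 21.2 and 43.9 CPM in diabetic embryos, with 3 of 16 diabetic embryos above the normal median and a log2 difference of −0.50 (SE 0.19, adjusted p = 0.0864). Mdm2 was 92.0 ± 12.0 CPM and 77.6 ± 14.4 CPM (−0.24, adjusted p = 0.0739), with 1 of 16 diabetic embryos above the normal median. Cdkn1a was 12.8 ± 3.82 CPM in normal and 16.5 ± 4.78 CPM in diabetic embryos (0.36, adjusted p = 0.120). The difference was 0.14 for Bax, 0.08 for Bbc3, −0.24 for Pmaip1, −0.11 for Trp53inp1 and 0.00 for Zmat3, with adjusted p-values from 0.203 to 0.997.

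**Figure D2:**
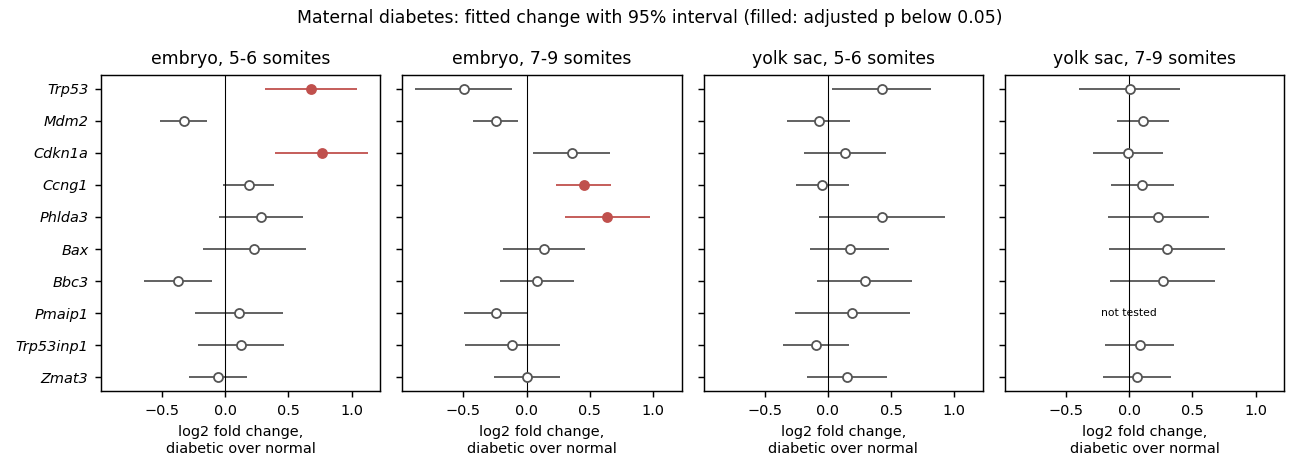
Log2 difference between diabetic and normal conditions for each gene in the 4 comparisons of tissue and stage, with 95% intervals; filled points passed the test (adjusted p below 0.05). Trp53 lies at 0.68 in embryos of 5–6 somites and at −0.50 in embryos of 7–9 somites, and no point of the yolk sacs is filled.

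Whether the difference with diabetes itself changed between stages was tested as an interaction term over all 66 embryos. Trp53 passed, with a change of −1.16 on the log2 scale between its difference at 5–6 and at 7–9 somites (SE 0.27, adjusted p = 0.00841). It was the only one of the 10, where 8.7% of all tested genes passed. The level of Trp53 in normal embryos was 22.3 ± 11.5 CPM at the earlier and 34.5 ± 12.5 CPM at the later stage, while in diabetic embryos it was 35.4 ± 13.2 CPM and 24.1 ± 10.3 CPM. The change in the difference was between −1.52 and −1.03 under 9 alternatives and was called in 8 of them. The exception was the fit with counts summed per litter and stage, added after seeing the data, in which it was −1.03 (adjusted p = 0.173) and 1 gene of the whole table was called. For Ccng1 and Phlda3, which were called at the later stage alone, the change was 0.28 (adjusted p = 0.192) and 0.38 (adjusted p = 0.285), and for Cdkn1a, called at the earlier stage alone, it was −0.39 (adjusted p = 0.275). A difference between stages was therefore not shown for these 3 genes. The dependence on GC content is a value that moved beside Trp53, as its slope had a Spearman correlation of −0.64 with Trp53 across embryos with group means removed. With the GC and length trends removed, Trp53 kept the call.

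In yolk sacs no member was called at either stage. In those of 5–6 somites 0 of 10 genes passed, and 0% of the table, where 863 genes had an unadjusted p below 0.05 and DESeq2 called 1 gene and none of the 10. Trp53 had the lowest p of the 10. It was 8.43, 16.8 and 29.4 CPM at the lowest, median and highest in normal and 7.14, 21.4 and 45.5 CPM in diabetic yolk sacs, a log2 difference of 0.43 (unadjusted p = 0.0348, adjusted p = 0.574) with overlapping groups. Cdkn1a was 21.8 ± 7.11 CPM and 24.2 ± 8.15 CPM, and Phlda3 5.06 ± 2.77 CPM and 6.98 ± 3.76 CPM. In those of 7–9 somites 0 of 9 genes passed, with Pmaip1 left out by the filter on low counts, against 0.0194% of all tested genes. There Trp53 was 20.1 ± 7.46 CPM in normal and 20.9 ± 9.08 CPM in diabetic yolk sacs, with a difference of 0.00 (95% interval −0.40 to 0.41).

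Bax, the pore-forming protein of the mitochondrial pathway of cell death, had 1 yolk sac far above the others. In the diabetic group at 7–9 somites its lowest level was 15.5 CPM, its median 27.2 CPM and its highest 154 CPM, and the next highest was 50.4 CPM. The high value rests on 125 counts in the library with the lowest total of all, 1017901, in which Gm42418 took 21.2% of counts. The log2 difference of Bax in this comparison was 0.30 with and 0.01 without the litter of that library, and it was called in neither.

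The difference with diabetes was also compared between embryo and yolk sac. At 5–6 somites 0 of 10 genes and 0% of the table passed, with 895 genes at an unadjusted p below 0.05 and 0 called by DESeq2. At this stage Cdkn1a had a change of −0.62 (unadjusted p = 0.0143, adjusted p = 0.618) and Bbc3 one of 0.68 (unadjusted p = 0.00454, adjusted p = 0.618). At 7–9 somites 0 of 10 genes passed, against 0.389% of the table, and Mdm2 had the lowest p (0.36, unadjusted p = 0.0103, adjusted p = 0.151). Between stages in yolk sacs 0 of 10 genes and 0% of the table passed, with 634 genes at an unadjusted p below 0.05 and 0 called by DESeq2. The calls of Trp53, Cdkn1a, Ccng1 and Phlda3 in embryos are thus not shown to be particular to the embryo.

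Littermates share a dam, and the dam is what was diabetic or not. Means of log2(CPM + 1) per litter were therefore compared by a two-sided exact permutation test over all assignments of litters to the conditions, 92378 at 5–6 and 1716 at 7–9 somites, with smallest possible p-values of 1.08e-05 and 5.83e-04. Of 40 tests, 8 gave an unadjusted p below 0.05, of which 7 were in embryos. At 5–6 somites Trp53 was higher by 0.64 (exact p = 0.0161), Cdkn1a by 0.75 (exact p = 0.00368), and Mdm2 had a difference of −0.36 (exact p = 0.00491). The litter means of Trp53 spanned 3.86 to 5.84 in normal and 4.53 to 5.64 in diabetic litters, so the 2 sets overlapped. At 7–9 somites Phlda3 was higher by 0.77 (exact p = 0.00175), Ccng1 by 0.40 (exact p = 0.0157) and Cdkn1a by 0.43 (exact p = 0.0437), while Mdm2 had a difference of −0.33 (exact p = 0.0379) and Trp53 one of −0.50 (exact p = 0.0746). The eighth was Phlda3 in yolk sacs of 7–9 somites (0.35, exact p = 0.0484). These p-values are not adjusted for the 40 tests.

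**Figure D3:**
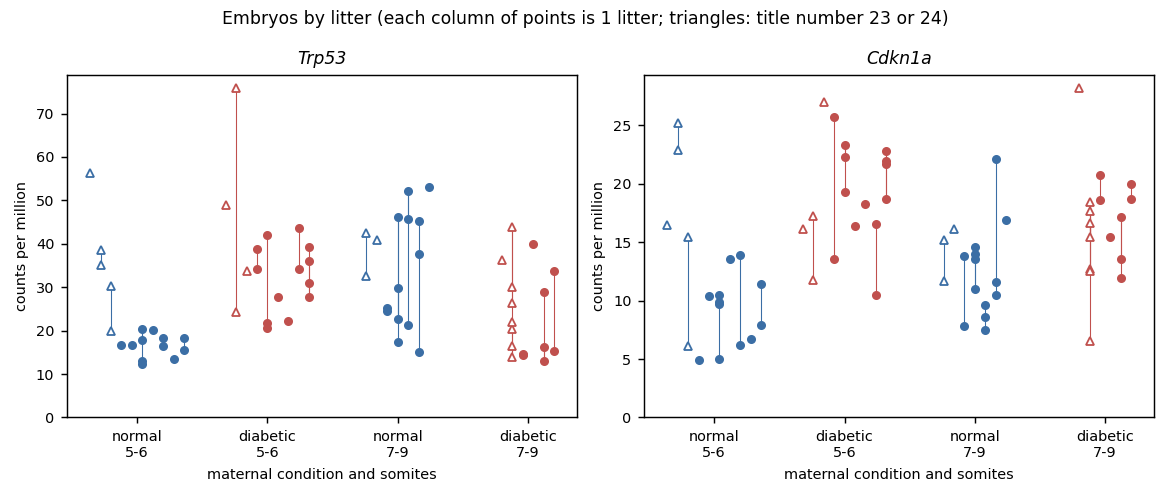
Level of Trp53 and Cdkn1a in every embryo, in CPM, by maternal condition and somite stage, where each column of points joined by a line is 1 litter and open triangles are embryos with the title number 23 or 24. At 5–6 somites the normal embryos with the number 28 lie between 12.3 and 20.3 CPM of Trp53, below the 20.5 to 43.6 CPM of the diabetic ones.

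Genes around p53 were counted from lists. In embryos of 5–6 somites none of the 18 tested genes of p53 control, of 8 growth arrest targets, 9 cell death targets, 4 repair targets, 8 metabolic targets, 10 members of the BCL2 family and 14 cell cycle genes was called for diabetes. These counts stand beside 0.591% higher and 0.872% lower of all tested genes, so few calls could be awaited in lists of this size. In the later embryos 3 of 18 genes of p53 control were lower in diabetic embryos and 0 higher, against 3.89% and 5.2% of all tested genes. These were Atr, a kinase of the response to replication stress (−0.29, adjusted p = 0.0267), Mdm4, a partner of Mdm2 that inhibits p53 (−0.18, adjusted p = 0.0292), and the deacetylase Sirt1 (−0.33, adjusted p = 0.0443). Among 10 cell death targets Ei24 was lower (−0.28, adjusted p = 0.0486), and the other lists had no call. None of these 4 genes was called with the litter as a random block (adjusted p-values from 0.0547 to 0.117) or with counts summed per litter (from 0.115 to 0.317). The difference with diabetes changed between stages for the ubiquitin ligase Cop1 (−0.52, adjusted p = 0.0101), Atr (−0.41, adjusted p = 0.0265) and the deubiquitinase Usp7 (−0.45, adjusted p = 0.0475) among genes of p53 control. Of the other lists, Sfn, which encodes 14-3-3 sigma (1.09, adjusted p = 0.0386), and the replication gene Mcm5 (0.32, adjusted p = 0.0369) changed upward. Of all tested genes 8.7% passed this test. With the litter block Usp7 and Sfn lost the call, and with counts summed per litter and stage none of the 5 was called (adjusted p-values from 0.169 to 0.371). In yolk sacs none of these genes was called for diabetes, where 0% of all tested genes were at 5–6 somites and 0.0194% at 7–9 somites. No marker of trophoblast and decidua was high enough to be tested in embryos, and of the primitive erythroid markers 1 of 5 was tested at 5–6 somites. In yolk sacs the summed trophoblast and decidua markers were uneven. At 5–6 somites the median was 6.86 CPM (highest 104) in normal and 36.1 CPM (highest 226) in diabetic samples. At 7–9 somites it was 5.60 CPM (highest 31.9) and 13.7 CPM (highest 310). At 5–6 somites 1 of 5 was tested (0.95) and not called. The part of such tissue in the yolk sac values was not tested.

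The next comparison was between stages, with both maternal conditions in 1 fit. In embryos 4 of 10 genes were lower at 7–9 than at 5–6 somites and 0 of 10 were higher, against 15.8% and 14.3% of all tested genes. The cell death gene Pmaip1 fell most, from 22.5 ± 8.22 CPM (n = 34) to 13.7 ± 3.45 CPM (n = 32), a log2 difference of −0.72 (adjusted p = 1.22e-06). Bbc3 fell from 32.7 ± 9.80 CPM to 23.2 ± 6.66 CPM (−0.49, adjusted p = 1.76e-04) and Zmat3 from 114 ± 25.6 CPM to 88.8 ± 23.4 CPM (−0.37, adjusted p = 7.48e-04). Trp53inp1, a p53-induced gene with roles in cell death and autophagy, had 8.33 ± 2.72 CPM and 6.24 ± 2.29 CPM (−0.40, adjusted p = 0.0112), a call that was lost with counts summed per litter and stage (adjusted p = 0.0641). The group ranges overlapped for all 4. Mdm2, at 85.4 ± 18.1 CPM and 84.8 ± 14.9 CPM, had a difference of −0.01 (95% interval −0.14 to 0.12).

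In yolk sacs Bbc3 and Zmat3 were lower at the later stage too. Bbc3 went from 13.5 ± 5.55 CPM to 7.15 ± 3.15 CPM (−0.89, adjusted p = 5.83e-07) and Zmat3 from 33.1 ± 10.1 CPM to 21.2 ± 5.45 CPM (−0.64, adjusted p = 1.32e-06). Cdkn1a went from 23 ± 7.63 CPM to 18.4 ± 4.92 CPM (−0.31, adjusted p = 0.0172), a call that was lost with the share of Gm42418 as a covariate (−0.15, adjusted p = 0.432), with the litter block (adjusted p = 0.0521) and with counts summed per litter and stage (adjusted p = 0.0588). Counts were 3 of 10 lower and 0 of 10 higher, where 19.7% and 20.7% of all genes were. Pmaip1, which was at 3.90 ± 1.72 CPM and 3.77 ± 1.79 CPM in yolk sacs, did not pass (−0.03, 95% interval −0.35 to 0.29). The median difference over the 10 genes was −0.13 in embryos and 0.00 in yolk sacs, beside −0.01 and 0.00 over all genes. Marker genes moved between these stages as well, since 3 of 3 tested primitive erythroid genes in embryos and 8 of 10 visceral endoderm genes in yolk sacs were higher at the later stage. The 1 tested marker of trophoblast and decidua in yolk sacs was lower (−1.75). The part of such changes in tissue makeup in the values of the p53 genes was not tested.

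Of the surrounding lists, 6 of 18 genes of p53 control were lower and 0 higher at the later stage in embryos, led by the acetyltransferase Ep300 (−0.34, adjusted p = 8.36e-05) and Sirt1 (−0.31, adjusted p = 1.25e-04), and Mdm4 was among them (−0.15, adjusted p = 0.0107). Over all tested genes 15.8% were lower and 14.3% higher. In yolk sacs 7 of 19 were lower, again led by Ep300 (−0.48, adjusted p = 1.49e-05), and 2 of 19 higher, where the table had 19.7% and 20.7%. Cell death targets had 2 of 10 higher in embryos, Pidd1 (0.64, adjusted p = 1.21e-04) and Ei24 (0.22, adjusted p = 0.00382), and 1 lower, Bid (−0.43, adjusted p = 3.07e-04). Gadd45a, a growth arrest gene, was lower at the later stage in embryos (−0.40, adjusted p = 8.53e-04) and higher in yolk sacs (0.56, adjusted p = 0.00142), and the difference between these tissues was not tested. Another growth arrest gene, the phosphatase Ptp4a3, was higher at the later stage both in embryos (0.79, adjusted p = 4.62e-07) and in yolk sacs (0.61, adjusted p = 0.00105).

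Between tissues 7 of the 10 genes were called, more than between maternal conditions or stages. At both stages the same 3 genes were higher and the same 4 lower in yolk sacs than in embryos, namely Cdkn1a, Ccng1 and Trp53inp1 higher and Trp53, Bbc3, Pmaip1 and Zmat3 lower. Counts of 3 of 10 and 4 of 10 stand beside 38.5% higher and 40.7% lower of all tested genes at 5–6 somites, and 39.1% and 42% at 7–9 somites, so the share called among the 10 was no larger than that of the table. The median difference over the 10 genes was 0.00 and 0.10 at the earlier and later stage, beside −0.02 and −0.03 over all genes.

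Zmat3 and the cell death genes Pmaip1 and Bbc3 were the ones most reduced in yolk sacs. At 5–6 somites Zmat3 was 53.3, 115 and 180 CPM at the lowest, median and highest in embryos and 7.18, 33.3 and 52.4 CPM in yolk sacs, which did not overlap (−1.78, SE 0.10, adjusted p = 2.54e-27). The same held at 7–9 somites, with 45.5, 88.5 and 145 CPM in embryos and 9.44, 20.4 and 33.3 CPM in yolk sacs (−2.07, SE 0.10, adjusted p = 1.13e-31). Pmaip1 was 8.83, 21.3 and 42.0 CPM in embryos and 0, 3.95 and 8.51 CPM in yolk sacs at 5–6 somites (−2.48, SE 0.14), again with no overlap, while at 7–9 somites the ranges touched (−1.79, SE 0.12). Both Pmaip1 and Zmat3 were lower in the yolk sac in all 34 concepti at the earlier and all 32 at the later stage. Bbc3 was lower in the yolk sac in 33 of 34 and 32 of 32 concepti (−1.26 and −1.67). Trp53 was lower in 27 of 34 and 23 of 32 concepti (−0.50, SE 0.13, adjusted p = 6.16e-04, and −0.52, SE 0.14, adjusted p = 6.49e-04).

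Trp53inp1 and Ccng1 showed the opposite pattern. Trp53inp1 was 8.33 ± 2.72 CPM in embryos and 20.6 ± 5.12 CPM in yolk sacs at 5–6 somites (1.33, SE 0.10) and was higher in the yolk sac of all 34 and all 32 concepti. Ccng1 was 26.9 ± 5.70 CPM and 53.5 ± 10.6 CPM at 5–6 somites (1.0, SE 0.07), higher in the yolk sac of 34 of 34 and 30 of 32 concepti. Cdkn1a was higher in 26 of 34 and 23 of 32 concepti (0.63 and 0.34). Mdm2, Phlda3 and Bax were not called at either stage, with differences of 0.02 and 0.06 for Mdm2 (95% intervals −0.14 to 0.18 and −0.08 to 0.20). Embryo and yolk sac are made of different cell types, so these values are differences in whole tissues.

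**Figure D4:**
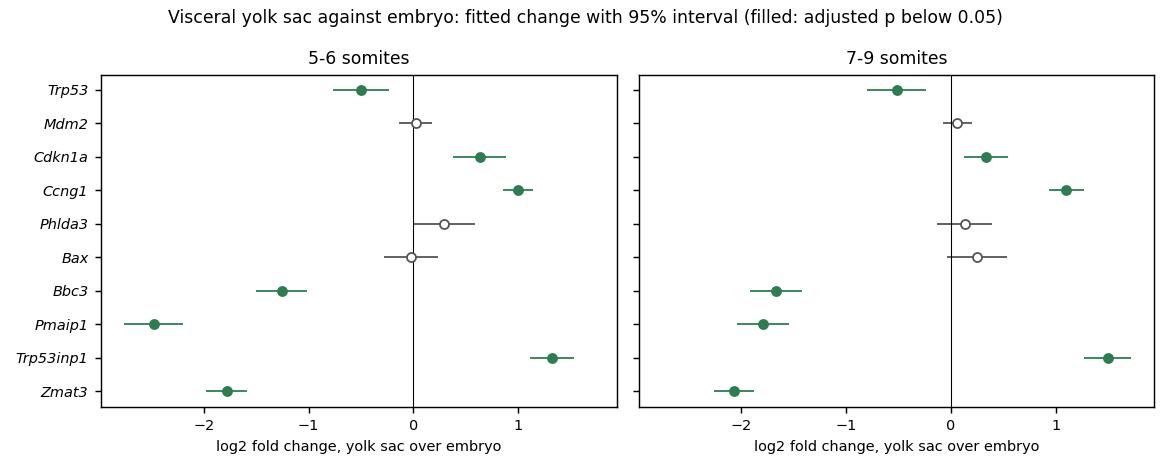
Log2 difference between yolk sac and embryo for each gene at both stages, with 95% intervals; filled points passed the test (adjusted p below 0.05). Pmaip1 (−2.48 and −1.79) and Zmat3 (−1.78 and −2.07) lie farthest below 0, and Trp53inp1 (1.33 and 1.5) lies farthest above it.

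Around these genes, 12 of 19 genes of p53 control were lower and 3 higher in yolk sacs at 5–6 somites, and 11 and 4 at 7–9 somites. These and the following counts stand beside 40.7% lower and 38.5% higher of all tested genes in tissues of 5–6 somites, and 42% and 39.1% in those of 7–9 somites, and nothing is called particular to a list. Cdkn2a, whose product p19Arf blocks Mdm2, was higher (3.31 and 3.66), and the kinase gene Atm (−1.20 and −1.33) and Trp53bp1 (−1.46 and −1.64) were lower. Of the BCL2 family 6 of 11 were lower and 3 higher at the earlier stage and 6 of 10 and 3 of 10 at the later, among them the cell death gene Bok (−2.55 and −2.94), Bmf (−1.38 and −1.56) and the survival gene Mcl1 (0.65 and 0.84). Cell death targets went both ways, with 4 of 10 higher and 4 of 10 lower at 5–6 somites. Dram1 (5.60), Perp (1.59) and Bid (1.14) were among the higher and Siva1 (−1.08) among the lower, all values being log2 differences at 5–6 somites. Growth arrest targets had 4 of 9 higher and 2 of 9 lower at that stage, with Plk3 (1.95) higher and Psrc1 (−1.90) and Gadd45a (−1.77) lower. Repair targets had 2 of 4 in each direction, and metabolic targets 5 of 8 higher and 3 of 8 lower, of which Ddit4 differed most (−3.27).

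The last question was whether the genes vary together between concepti of 1 group. Pearson and Spearman correlations of log2(CPM + 1), with group means removed, were computed for 45 pairs in embryos, 45 in yolk sacs and for each of the 10 genes between embryo and yolk sac of 1 conceptus, 100 relations in all, with permutation tests of 100000 resamples. The resamples permuted single libraries within a group, littermates included, so these p-values take no account of the litter. In embryos 7 of 45 pairs had both adjusted p-values below 0.05, 2 positive and 5 negative, and in yolk sacs 6 of 45, 4 positive and 2 negative. None of the 10 genes was related between an embryo and its own yolk sac, with r from −0.14 to 0.17.

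In embryos Trp53 was lower where Zmat3 was higher, with r = −0.52 and rho = −0.53 (adjusted permutation p = 0.001 and 0.0015), and r = −0.47 without the 2 libraries farthest from the median of Trp53. It also had a negative relation with Bbc3 (r = −0.34, rho = −0.39, adjusted permutation p = 0.0428 and 0.0175; r = −0.31 without 2 libraries). Bbc3 and Zmat3 were positively related (r = 0.53, rho = 0.50, adjusted permutation p = 0.0015 and 0.00233), although r fell to 0.39 without 2 libraries. Mdm2 was positively related to Bbc3 (r = 0.42, rho = 0.46, adjusted permutation p = 0.00888 and 0.00425; 0.34 without 2 libraries) and negatively to Cdkn1a (r = −0.39, rho = −0.33, adjusted permutation p = 0.0155 and 0.0428; −0.31 without 2 libraries). The slope of counts on GC content, a property of the library, had Spearman correlations of −0.64 with Trp53, 0.53 with Zmat3 and 0.42 with Bbc3 in the same embryos, so that these 3 genes shared that property as well as each other. The share of counts on Gm42418 had Spearman correlations of 0.70 with Cdkn1a, −0.49 with Mdm2 and −0.31 with Bbc3 in these embryos. The part of both properties in the relations was not tested.

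In yolk sacs the relation of Trp53 with Zmat3 was absent from the calls, with r = 0.00, and Trp53 was instead related to Ccng1 (r = −0.48, rho = −0.43, adjusted permutation p = 0.00167 and 0.006; −0.51 without 2 libraries). Ccng1 and Trp53inp1, both higher in yolk sacs than in embryos, were positively related there (r = 0.43, rho = 0.37, adjusted permutation p = 0.00614 and 0.0235; 0.35 without 2 libraries). The pairs called in both tissues were Bbc3 with Zmat3, which had a positive sign (r = 0.40 in yolk sacs), and Ccng1 with Zmat3, which had a negative one (r = −0.46 in yolk sacs). Trp53 and Cdkn1a, both raised with diabetes in embryos of 5–6 somites, were not related within groups (r = 0.11, rho = 0.06, adjusted permutation p = 0.559 and 0.719 in embryos, and r = −0.14 in yolk sacs). Also called in yolk sacs were Phlda3 with Bbc3 (r = 0.42, rho = 0.49) and with Zmat3 (r = 0.45, rho = 0.41). There the GC slope had Spearman correlations of −0.40 with Trp53, −0.05 with Ccng1, 0.41 with Zmat3, 0.43 with Phlda3 and 0.14 with Bbc3. The Gm42418 share had one of −0.36 with Ccng1 and of 0.18 with Trp53. The part of these properties and of the title number in the relations, and the differences in r between tissues, were not tested.

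**Figure D5:**
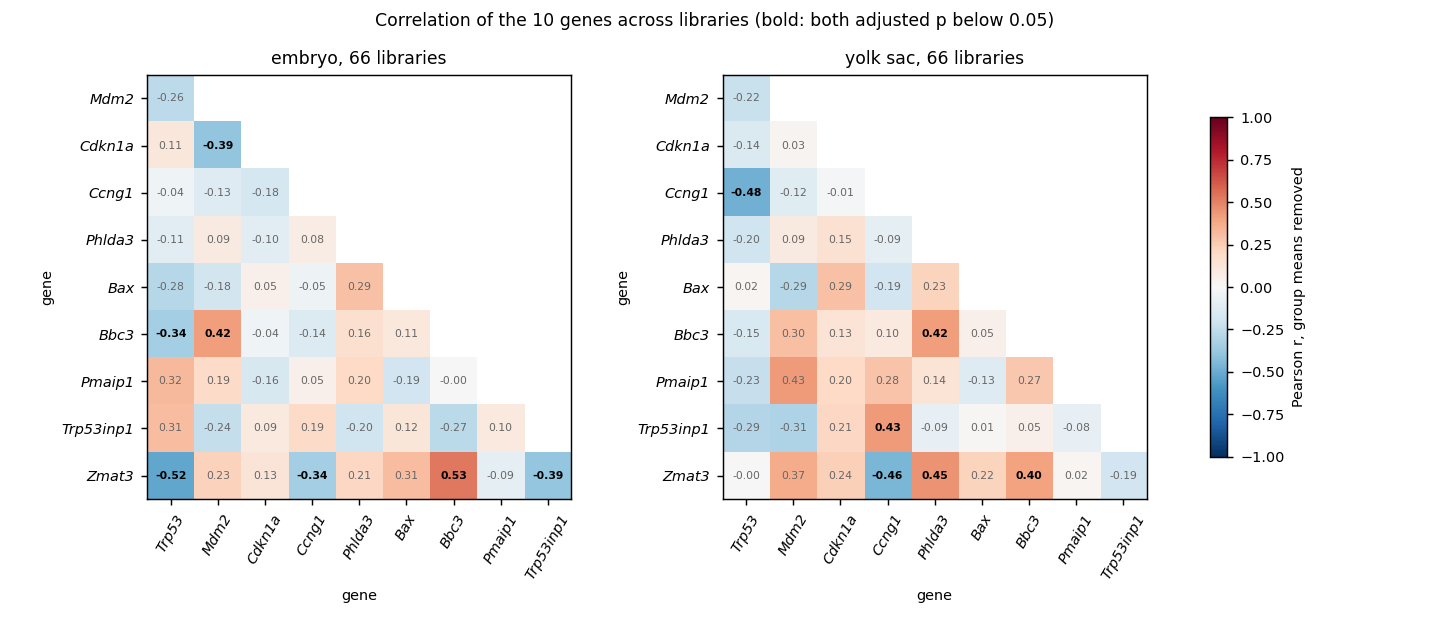
Pearson correlation between each pair of the 10 genes across 66 embryos and 66 yolk sacs, with group means removed; pairs in bold had both adjusted p-values below 0.05. Bbc3 and Zmat3 are positively related in both tissues, while Trp53 and Zmat3 are at −0.52 in embryos and 0.00 in yolk sacs.

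Among 11292 genes compared in embryos, those whose levels followed Trp53 most closely were Cited2 (Spearman 0.84), Tjp1 (0.82), Usp37 (0.81), Snrnp70 (0.81) and Tmbim6 (0.80) over 66 libraries. In yolk sacs, with 10851 genes compared, they were Snrnp70 (0.83), Zcchc14 (0.80), Isg20l2 (0.79), Sh3gl1 (0.79) and Ptk7 (0.78). For Cdkn1a they were Nbeal1 (0.77), Pcm1 (0.76), Tet1 (0.76), Rbm28 (0.75) and Vcp-rs (0.75) in embryos and Ywhaz (0.57), Mcoln1 (0.53), Colgalt1 (0.53), Palm3 (0.53) and Usp2 (0.52) in yolk sacs. None of these 19 genes is among the 10 p53 genes described here. They share libraries, depth and the library properties named above, and are given as a description.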

How the data were processed

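RNA of whole embryos and visceral yolk sacs was sequenced by the authors as QuantSeq 3′ libraries with unique molecular identifiers. The deposited values are raw counts of molecules per gene, with no normalization or filter. The submitters' processing notes name STAR, HTSeq and the build mm10, and versions are not given in the sources used here. Of 47643 genes, 25646 of the 26051 without a symbol in the table were named from GENCODE, and all 10 genes were matched by the deposited symbol. Gene coordinates are from GENCODE on GRCm38 and promoter sequences from RefSeq for GRCm38.p6.

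Counts were tested with edgeR 4.0.16 (filterByExpr with a minimum count of 10, TMM, glmQLFit and glmQLFTest) in R 4.3.3, with Benjamini-Hochberg adjustment over all genes tested and a call at an adjusted p below 0.05. Maternal conditions were compared within tissue and stage, while stages and tissues were compared with the condition as covariate. Interactions were terms of fits over both. Log2 differences are diabetic minus normal, later minus earlier stage, and yolk sac minus embryo. Litter means and correlations used log2(CPM + 1) and permutation tests, and the scripts were tested on simulated data. Nothing in the labels says that littermates are independent, while the tests over libraries without a litter term treat them as separate samples. Their p-values therefore take no account of the litter, which is the unit that shared a diabetic or normal dam. The correlation of littermates estimated by limma 3.58.1 was 0.251 for embryos of 5–6 and 0.128 for those of 7–9 somites, with 0.165 and 0.0992 for their yolk sacs. Embryo and yolk sac are paired by conceptus through their titles, and their deviations from the group means had a median correlation of 0.105 (5–6 somites) and 0.0441 (7–9 somites).

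The 10 genes are named in every comparison. Genes of the other lists are counted, and up to 5 called genes per list may be named, ordered by adjusted p. For Trp53 and Cdkn1a the 5 genes with the highest Spearman correlation in each tissue are named. The genes, lists and tests were chosen with earlier results of these data known. Alternatives were DESeq2 1.42.0, its size factors in edgeR, no filter, a filter at a mean count of 10, litter as a random block, counts summed per litter, somite number and sex as covariates, the number in the titles (23, 24 or 28) as covariate, conceptus as block, pseudocounts of 0.5 and 5, and leaving out each litter. The share of Gm42418 as covariate, removal of GC and length trends (lowess, span 0.3, GC of the last 500 bases), the number 28 alone, counts summed per litter and stage for stages and their interactions, and the litter block and litter sums for called genes of the lists were added after seeing the data. Trp63 and Trp73, the relatives of p53, were too low to be tested.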

Additional observations from a re-analysis of the deposited data

Results flagged for a closer look

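The difference in embryonic Trp53 between diabetic and normal conditions changed with stage, and the test of that change is what singled it out. The change was −1.16 on the log2 scale (SE 0.27, adjusted p = 0.00841, edgeR interaction term over 66 embryos), from 0.68 at 5–6 somites to −0.50 at 7–9 somites. Normal embryos had a mean of 22.3 CPM at 5–6 somites and of 34.5 CPM at 7–9 somites, and diabetic embryos had 35.4 and 24.1 CPM. With counts summed per litter and stage, an alternative added after seeing the data, the change was −1.03 and was not called (adjusted p = 0.173). The difference at the later stage alone did not pass the test (adjusted p = 0.0864). Trp53 in yolk sacs had a change of −0.42 (adjusted p = 0.881).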

How the results depend on the processing

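Of 1626 values of the 10 genes under alternatives, 1495 kept direction and side of the threshold, 54 kept the direction and changed side, and 77 changed direction, of which 0 were called as reported. The count of the 10 genes called for diabetes in embryos depended on the setting. At 5–6 somites, where 2 were called, it was 0 with the litter as a random block, with counts summed per litter and with the Gm42418 share as covariate, 1 with somite number and sex as covariates, 3 with DESeq2, the title number as covariate or GC and length trends removed (the third being Mdm2, lower), and 4 among titles with the number 28, and it ranged from 0 to 3 without 1 litter. At 7–9 somites, where 2 were called, it was 1 with the litter block and with GC and length trends removed, 0 with counts summed per litter, 4 with the title number or the Gm42418 share as covariate, and 2 to 4 without 1 litter. The cause was not tested, except that summing leaves 19 and 13 samples. The change between stages in embryos, with 1 call, had 3 among titles with the number 28 and 0 with counts summed per litter and stage. Counts over all genes moved by more than 1.5 times too. For diabetes in embryos at 5–6 somites 161 genes were called, against 397 with DESeq2, 291 without the filter, 4 with the litter block, 448 with the title number, 0 summed per litter, 0 with the Gm42418 share, 274 with trends removed and 1753 among titles with 28. At 7–9 somites 966 became 314 with the block, 1899 with the title number, 8 summed per litter and 401 with trends removed. In yolk sacs 0 became 1 with DESeq2, with somite number and sex or with the Gm42418 share and 5 with the title number at the earlier stage, and at the later stage 2 became 18 with DESeq2, 25 without the filter, 11 with the filter at a mean count of 10, 5 with trends removed, 110 with the share, 1 with the block and 0 summed per litter or among titles with 28. Leaving out 1 litter gave 4 to 675 and 501 to 1067 genes in embryos and 0 to 3 and 0 to 28 in yolk sacs, in the order of stages. The change between stages in embryos went from 984 to 438 without the filter, 113 with the Gm42418 share, 532 with trends removed, 1735 among titles with 28 and 1 summed per litter and stage, and the change between tissues at 7–9 somites from 45 to 219 with DESeq2, 22 without the filter, 99 with the block, 128 with the share and 12 with trends removed. Summing per litter and stage gave 1591 calls between stages in embryos, against 3342. Tissue calls were 14180 and 14915 without the filter, against 9091 and 9235. With the conceptus as replicate block, which pairs embryo and yolk sac, 7 and 7 of the 10 genes were called between tissues, as without it, and no call changed. The number of litter tests below 0.05 was 7 or 8 and that of related pairs 13 or 14 across pseudocounts. Depth limits Phlda3, Pmaip1 in yolk sacs and Trp53inp1 most, where few counts stand behind a value.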
